A study of Mus musculus with 2 samples.

Results

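The genes described here encode subunits of the AMPA and NMDA types of glutamate receptor. They were chosen by name, as listed genes present in the matrices of both libraries: Gria1, Gria2, Gria3 and Gria4 of the AMPA receptor, and Grin1, Grin2a, Grin2b, Grin2d and Grin3a of the NMDA receptor. All 9 were found, 4 AMPA and 5 NMDA genes among 31053 genes shared by the matrices. The choice used no measured value, although earlier results of these data were known.

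The study sequenced RNA of single cells from the mouse forebrain in 2 libraries, 1 for each age. The E18 library was made at embryonic day 18 from CD1 mice, an outbred strain, and its tissue was the cortex with the dorsal part of the ventricular-subventricular zone (V-SVZ), the germinal layer along the lateral ventricle. The P2 library was made at postnatal day 2 from Emx1Cre;R26Eyfpfl/fl mice, and its tissue was V-SVZ of both the dorsal and the lateral wall, without cortex. In these mice the Emx1 promoter, which is active in the precursors of the cortex, drives Cre, so their descendants carry the fluorescent protein EYFP. Tissue of both ages was digested with papain, and living nucleated cells were sorted by staining with DRAQ5, a DNA dye, and by exclusion of propidium iodide. The number of animals behind each library is not known here.

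AMPA receptors are channels of 4 subunits that carry most of the fast excitatory current at synapses, and NMDA receptors are channels that need glutamate together with glycine or D-serine and that magnesium blocks until the membrane is depolarised. In AMPA receptors the Gria2 protein, once its pore glutamine codon has been edited to arginine in the RNA, makes the channel almost impermeable to calcium, so receptors without Gria2 let calcium in. NMDA receptors hold the obligatory Grin1 subunit with Grin2 subunits: Grin2b prevails before birth and Grin2a is acquired later, Grin2d is typical of interneurons and deep brain regions, and Grin3a lowers magnesium block and calcium entry. Migrating neurons, neural stem cells and oligodendrocyte precursors are known to carry some of these receptors before any synapse forms.

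The pore codons are shown because they set how the AMPA genes differ from the NMDA genes at the position that governs calcium and magnesium. Each line gives 33 bases of the coding strand of a GENCODE transcript, with the codon of the pore site in capitals: glutamine in the AMPA genes and asparagine in the NMDA genes shown.
Gria1: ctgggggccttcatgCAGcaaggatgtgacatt
Gria2: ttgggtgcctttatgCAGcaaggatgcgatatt
Gria3: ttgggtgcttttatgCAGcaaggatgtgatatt
Gria4: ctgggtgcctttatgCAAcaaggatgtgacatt
Grin1: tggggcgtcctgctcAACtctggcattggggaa
Grin2a: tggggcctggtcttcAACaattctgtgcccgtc
Grin2d: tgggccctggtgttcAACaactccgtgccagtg
The Gria2 codon in the genome is a glutamine codon like that of the other AMPA genes, and the deposited counts do not tell edited from unedited transcripts. The site of Grin3a was not searched.

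The promoter of Gria2 is shown because REST, a repressor of neuronal genes in other cells, is read beside it in the comparisons of neurons with stem cells. RefSeq promoter windows on GRCm38.p6 were matched for 4 of the genes, Grin1, Gria2, Grin2d and Gria4. They were searched on both strands for a core of RE1, the element REST binds: AGCACC and GGACAG with any 2 bases between them. The Gria2 window held it, 170 to 157 bases before the start, on the strand opposite to the gene, and the other windows did not. The Grin2d window, chr7:45866682-45866931 for the bases before its start, lay inside the gene as placed below. The bases before the outer start of Grin2d were therefore not searched. Binding of REST at the Gria2 match and its effect on Gria2 were not tested. Among all RefSeq promoters 17 of 32851 windows of 300 bases held it, which is 0.0517%. The 250 bases before the start of Gria2, chr3:80802836-80803085 on the minus strand, follow with the match in capitals.
Gria2 promoter: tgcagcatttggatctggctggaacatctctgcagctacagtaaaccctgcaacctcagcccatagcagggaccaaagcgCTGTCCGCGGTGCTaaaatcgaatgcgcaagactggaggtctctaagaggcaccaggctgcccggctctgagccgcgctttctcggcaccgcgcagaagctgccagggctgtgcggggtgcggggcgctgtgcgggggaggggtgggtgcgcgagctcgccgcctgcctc

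In GRCm38 the AMPA genes lie at chr11:57011387-57330244 (Gria1, plus strand), chr3:80681450-80802835 (Gria2, minus), chrX:41400854-41678601 (Gria3, plus) and chr9:4417896-4796234 (Gria4, minus). The NMDA genes lie at chr2:25291181-25319187 (Grin1, minus), chr16:9567898-9995560 (Grin2a, minus), chr6:135713233-136173511 (Grin2b, minus), chr7:45831883-45878378 (Grin2d, minus) and chr4:49661611-49845744 (Grin3a, minus). Other counted genes overlap some of them: Grin1os opposite Grin1, Gm14329, Gm14330 and Gm26653 opposite Grin2b, Kdelr1 and Gm45441 opposite Grin2d, and Ppp3r2 on the strand of Grin3a. Reads of such pairs may be divided by the counting, and how it used strand is not stated in the labels.

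Barcodes numbered 2922 in the E18 matrix and 2778 in the P2 matrix, with 0 in common and median depths of 6292.5 and 11764 UMIs (unique molecular identifiers, 1 for each captured RNA molecule). After filtering, 2475 E18 cells and 2298 P2 cells remained, and they were clustered in each library without the receptor genes. Clusters carry the name of the cell type whose markers they resemble. For each class the UMIs were summed and scaled to 1000000 UMIs of the class (CPM), and the 95% Poisson interval stands in brackets after a value. Each age has 1 library, so no test between ages was possible and no p-value is given. Intervals cover counting error only, and age cannot be told apart from dissection, mouse line or library. A gene is counted below as higher or lower where CPM differed at least 2-fold, the 95% interval of the log2 ratio left out 0, and the groups together held 20 or more UMIs; genes with that many are called tested. Comparisons that use the same class, such as stem cells or excitatory neurons, share its cells and are not independent. UMI counts are not scaled by transcript length, and a transcript end that is poorly captured lowers a gene in every class, so values of different genes are compared only as shares of UMIs.

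Gria2 and Grin2b supplied most UMIs of their families in both libraries. Gria2 stood at 541 CPM (531 to 552) over all E18 cells and 351 CPM (345 to 357) over all P2 cells, and Grin2b at 270.4 CPM (263 to 278) and 60.5 CPM (58.0 to 63.1). After each cell was thinned to 3000 UMIs, which leaves out shallower cells, a Gria2 UMI was present in 68.6% of E18 and 53.1% of P2 cells (unthinned 83.5% and 81.8%), and a Grin2b UMI in 44.8% and 18.0% (unthinned 62.3% and 43.3%). Gria1, Gria3, Gria4, Grin1, Grin2a, Grin2d and Grin3a lay between 2.49 CPM (Grin2d) and 26.9 CPM (Gria1) over E18 cells and between 1.64 CPM (Grin2d) and 29.6 CPM (Gria1) over P2 cells. These means hide classes in which a low subunit was high, which the following paragraphs describe.

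Cells that should lack these receptors gave the background. The 8 microglia and 7 mural cells of the E18 library held 0 UMIs of all 9 genes, where 3 UMIs would be 28.9 CPM at their depth. The 44 P2 microglia, with a median of 20117 UMIs, gave 18.1 CPM (10.6 to 29.0) of Gria2 and 7.46 CPM (3.0 to 15.4) of Grin2b. Thinned, 2.70% of them had a Gria2 UMI. Every named neural class of 30 or more cells had Gria2 above this background, at 62.3 CPM (43.4 to 86.6) or more at E18 and 88.3 CPM (77.9 to 99.5) or more at P2. For the lower genes, values of a few CPM are not separated from it.

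**Figure D1:**
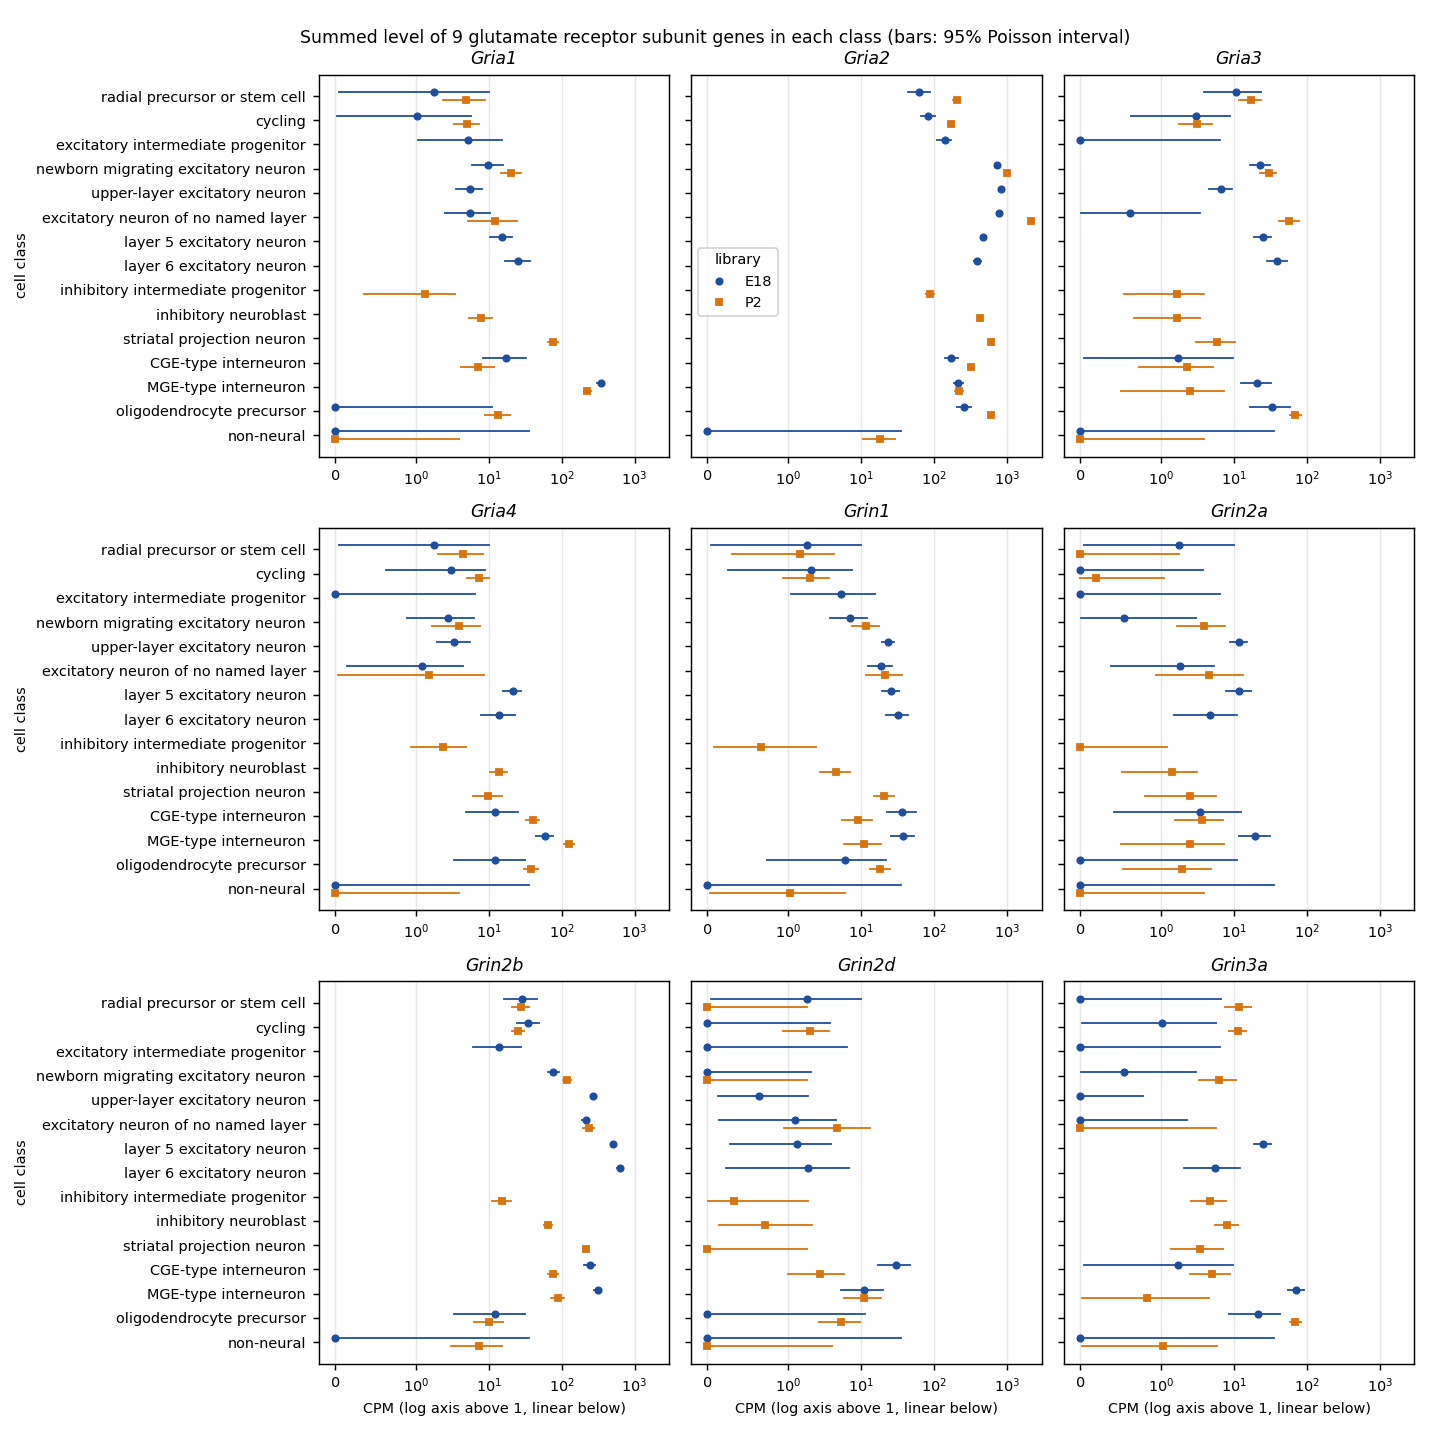
Level of each gene in every named class, as CPM of the summed UMIs on an axis that is logarithmic above 1 CPM and linear below. Circles are E18, squares are P2 and bars are 95% Poisson intervals. Gria2 spans 62.3 to 831 CPM over the E18 neural classes, while Gria1 stands at 346 CPM in E18 MGE-type interneurons and at 25.2 CPM or less in every other E18 class.

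The E18 library allowed the comparison of precursors with the excitatory neurons of the cortex. Gria2, Grin2b and Grin1 were higher in excitatory neurons than in radial precursors, by 11.2-fold, 11-fold and 11.9-fold. Gria2 was already present in precursors and higher in intermediate progenitors and again in newborn neurons, while Grin2b stayed low through the intermediate progenitors.

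Gria2 stood at 62.3 CPM (43.4 to 86.6) in 93 radial precursors, the stem cells of the cortex, and at 81.9 CPM (64.9 to 102) in 102 cycling cells. It stood at 139 CPM (110.0 to 173) in 97 excitatory intermediate progenitors, the Eomes-expressing cells that divide to give neurons, and at 720.2 CPM (682 to 760.1) in 361 newborn migrating excitatory neurons. The intervals of precursors and cycling cells overlapped, and each later step was separate from the one before. Thinned to 3000 UMIs, 17.9% of radial precursors, 37.9% of intermediate progenitors and 81.3% of newborn neurons had a Gria2 UMI.

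Grin2b stood at 28.5 CPM (16.3 to 46.2) in radial precursors, 34.8 CPM (24.1 to 48.6) in cycling cells, 13.9 CPM (5.99 to 27.3) in intermediate progenitors and 76.9 CPM (64.7 to 90.7) in newborn neurons. The first 3 of these did not differ beyond their intervals, and newborn neurons lay above them. Grin1, without which no NMDA receptor forms, was represented by 1 UMI in radial precursors, 2 in cycling cells, 3 in intermediate progenitors and 13 in newborn neurons, at 7.09 CPM (3.77 to 12.1) in the last. Grin3a had 0 UMIs in radial precursors, with an interval up to 6.57 CPM.

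Of the 9 genes 8 reached the UMI minimum between the 1563 excitatory neurons and the 93 radial precursors, and 3 were higher and 0 lower, where 30.6% of all tested genes differed, 14.3% higher and 16.3% lower. The log2 ratio was 3.48 (3.0 to 4.0) for Gria2, 3.46 (2.76 to 4.27) for Grin2b and 3.57 (1.08 to 8.88) for Grin1, the last against a single precursor UMI. The median over the 8 genes was 2.32, against 0.02 over all genes tested. Gria1, Gria3, Gria4 and Grin2a had log2 ratios of 2.47 (-0.04 to 7.79), 0.49 (-0.66 to 1.95), 2.07 (-0.45 to 7.39) and 2.16 (-0.35 to 7.48), and Grin3a had 63 UMIs against 0. Gria1 passed under 4 other settings, at 2.64 to 2.67: with doublets kept, at Leiden resolution 0.5, with TMM scaling and with unnamed E18 cluster 2 added. The ratio of Gria2 was 2.85 with doublets kept, and that of Gria3 was -0.05 at resolution 2. The radial cluster also held 8 of 8 endothelial markers at a summed 459 CPM, against 2.34 CPM in excitatory neurons, and their part in the ratios was not tested.

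Partners of the receptors were compared from lists of genes known from the same pathway. Among 17 measured auxiliary and assembly proteins of AMPA and kainate receptors 7 were higher in excitatory neurons and 1 was lower, with a median log2 ratio of 0.94 over the list. They included Cnih2, a cornichon that slows channel closing (log2 ratio 3.41, 2.93 to 3.93), and Cacng2, stargazin, which carries AMPA receptors to the membrane (log2 ratio 4.70, 2.22 to 10.01 on 1 precursor UMI). Frrs1l, which acts in receptor assembly, had 386 UMIs against 0, 6.26-fold more with the 0 set at 3 UMIs. The lower gene was Cpt1c (log2 ratio -1.02, -1.69 to -0.28).

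Of 20 trafficking and scaffold genes 9 were higher and 1 lower, with a median of 0.99. Shank1, a scaffold of the postsynaptic density, had a log2 ratio of 5.12 (3.26 to 8.17), while Camk2a, the kinase subunit of mature synapses, was lower at -1.93 (-3.33 to -0.19). Of 7 synaptic adhesion genes 5 were higher, with a median of 1.49, among them Lrrtm1 (log2 ratio 4.45, 1.96 to 9.76) and Lrrtm2 (log2 ratio 3.98, 1.49 to 9.29), and of 4 extracellular binders of AMPA receptors 3 were, with Olfm1 at 3.97 (2.93 to 5.29). Of 6 genes that make or move the NMDA co-agonists 0 were higher and 3 lower, with a median of -1.74: Phgdh, the first enzyme of serine synthesis, at -8.70 (-9.34 to -8.12), Slc7a10, a transporter of glycine and D-serine, at -4.65 (-6.10 to -3.24), and the serine transporter Slc1a4 at -1.78 (-2.32 to -1.19). Rest itself stood at 24.9 CPM in radial precursors and 3.12 CPM in excitatory neurons, a log2 ratio of -3.0 (-3.92 to -1.99).

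Among the excitatory neurons the 2 prevailing genes were ordered differently. By class Gria2 was highest in upper-layer neurons, neurons of no named layer and newborn neurons, and lower in layer 5 and layer 6. The clusters of the upper-layer class were not alike in this, as given below. Grin2b was higher in layer 5 and layer 6 than in the other classes and lowest in newborn neurons. Deep-layer neurons are born before upper-layer neurons in the cortex.

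Gria2 stood at 831 CPM (805 to 857) in 667 upper-layer neurons, 783 CPM (741 to 827) in 227 neurons of no named layer, 469 CPM (442 to 498) in 171 layer 5 neurons and 393 CPM (356 to 432) in 137 layer 6 neurons. The classes at the top of this order, newborn neurons included, did not all differ beyond their intervals, and layers 5 and 6 were separate from them and from each other. Grin2b stood at 272 CPM (257 to 287), 214 CPM (192 to 238), 510.5 CPM (481 to 541) and 629 CPM (582 to 678) in the same classes. Every neighbouring pair in the Grin2b order was separate. The layer 6 cluster had a marker score of 0.94 for layer 6 and 0.82 for subplate neurons. At Leiden resolution 2 it divided into 48 cells named layer 6 and 89 cells that stayed unnamed. The unnamed cells scored 0.81 for subplate and 0.71 for layer 6 neurons. The median depth was 12761 UMIs in layer 5, 7290.0 in layer 6, 6628 in upper-layer and 5146 in newborn neurons. Thinned to the same depth, 19.0% of newborn, 50.5% of upper-layer, 78.8% of layer 5 and 86.3% of layer 6 neurons had a Grin2b UMI.

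**Figure D2:**
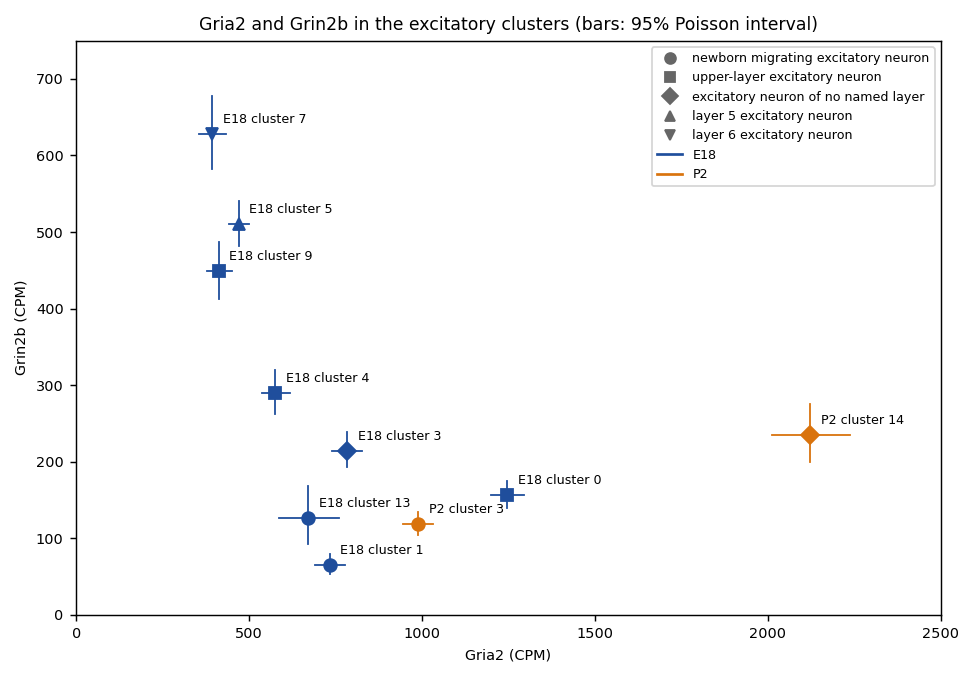
Gria2 against Grin2b in each excitatory cluster, both in CPM, with 95% Poisson intervals as bars. Shapes give the named class and colours the library. E18 layer 5 and layer 6 neurons lie at high Grin2b (510.5 and 629 CPM) with Gria2 at 469 and 393 CPM, the E18 newborn clusters lie at low Grin2b with Gria2 at 732.5 and 669 CPM, and the P2 cluster of no named layer lies at the far right with 2122 CPM of Gria2.

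Several subunits were higher in the deep layers than in newborn neurons. Layer 5 and layer 6 neurons together were set against newborn neurons, a comparison chosen after their values were seen. Of 8 genes tested 5 were higher and 0 lower, where 27.0% of all genes differed, 14.0% higher and 13% lower. The median of all genes tested was -0.15. The log2 ratio was 2.83 (2.59 to 3.09) for Grin2b, 1.94 (1.10 to 2.91) for Grin1 and 2.79 (1.49 to 4.46) for Gria4. It was 5.09 (2.56 to 10.42) for Grin3a (62 against 1 UMI) and 4.14 (1.55 to 9.48) for Grin2a (32 against 1 UMI). Gria2 did not reach the 2-fold limit, at -0.70 (-0.80 to -0.59), and passed with coarser clusters (Leiden resolution 0.5) at -1.16. There the ratio was 1.84 for Grin2b, 1.12 for Grin1 and 3.07 for Grin2a. Gria1 was at 0.90 (0.12 to 1.74), and passed with TMM scaling (1.07) and with cells weighted equally (1.06), and Gria3 at 0.36 (-0.18 to 0.92). Against upper-layer neurons the levels of Grin1 and Grin2a were not separate, at 25.2 CPM (19.1 to 32.6) and 11.9 CPM (7.86 to 17.3) in layer 5 and 23.2 CPM (19.1 to 27.9) and 11.8 CPM (8.92 to 15.3) in the upper layers. With finer clusters (Leiden resolution 2) Gria4 and Grin2a no longer passed, at 1.28 and 0.85. At that resolution only 53 cells were named layer 5 and 48 layer 6.

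Grin3a stood at 24.7 CPM (18.7 to 32.1) in layer 5 neurons, where 14.6% of cells had a UMI (5.29% thinned). It stood at 5.59 CPM (2.05 to 12.2) in layer 6, and the 667 upper-layer cells held 0 UMIs, with an interval up to 0.78 CPM. Gria3 stood at 39.2 CPM (28.2 to 52.9) in layer 6, 24.7 CPM (18.7 to 32.1) in layer 5 and 22.9 CPM (16.5 to 30.9) in newborn neurons, with overlapping intervals, and at 6.74 CPM (4.61 to 9.52) in upper-layer neurons. Gria4 stood at 21.2 CPM (15.6 to 28.1) in layer 5 against 3.37 CPM (1.93 to 5.48) in the upper layers. All 3 genes were thus higher in layer 5 than in the upper layers, with no overlap of intervals.

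The lists of partner genes were counted in the same comparison. Of 16 auxiliary genes 9 were higher and 1 lower, with a median log2 ratio of 1.42 and with Neto2, an auxiliary subunit of kainate receptors, at 3.05 (2.65 to 3.47), and of 18 scaffold genes 8 were higher and 1 lower, with a median of 1.01 and Camk2b at 4.78 (4.02 to 5.66) and Dlgap1 at 3.37 (2.79 to 4.02). Of 4 metabotropic glutamate receptor genes measured all 4 were higher. Grm5 had 415 UMIs against 0, 76.1-fold more with the 0 set at 3 UMIs. The vesicular transporters divided: Slc17a7 was higher (log2 ratio 2.61, 1.68 to 3.71) and Slc17a6 lower (log2 ratio -5.44, -6.78 to -4.36).

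The upper-layer class was not uniform. Its clusters held Gria2 at 1247 CPM (1199 to 1295), 576 CPM (537 to 617) and 412 CPM (377 to 449), and Grin2b in the reverse order, at 156 CPM (139.8 to 174), 289.8 CPM (262 to 319) and 449 CPM (412 to 488). The last of these, 122 cells led by Rorb, a transcription factor of layer 4, also had Grin2a at 33.8 CPM (24.4 to 45.7), above every other E18 class, of which the MGE-type interneurons came next with 19.7 CPM (11.7 to 31.2) and an overlapping interval. Grin2a was found in 25.4% of its cells (7.44% thinned).

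Against the other 545 upper-layer cells, a comparison also chosen after seeing the values, 3 of 6 genes tested differed, where 12.3% of all genes did, 5.34% higher and 6.92% lower. Grin2a was higher at 3.08 (2.18 to 4.07), or 8.47-fold, Grin2b was higher at 1.10 (0.94 to 1.26), and Gria2 was lower at -1.25 (-1.39 to -1.12). Grin1 was at 0.86 (0.27 to 1.43), Gria1 at -0.96 (-2.96 to 0.60) and Gria3 at -0.09 (-1.45 to 1.11). All 4 metabotropic receptor genes measured were higher, with Grm5 at 4.34 (3.66 to 5.10). Of 15 auxiliary genes 4 were higher and 2 lower, with a median of 0.44 against -0.13 over all genes, and with Cnih3 at 3.44 (2.86 to 4.06).

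Detection of both receptor types in the same cell followed these levels. Thinned to 3000 UMIs, 17.5% of newborn neurons had UMIs of an AMPA and an NMDA gene together and 66.1% had AMPA alone. The joint share was 45.3% in upper-layer, 61.8% in layer 5 and 63.4% in layer 6 neurons. In layer 6, 23.7% of cells had NMDA without AMPA UMIs. At this depth a missing UMI does not show that a cell lacks the transcript.

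Interneurons of the E18 cortex carried another set of subunits. Gria1, Grin2d, Grin3a and Gria4 were higher in interneurons than in excitatory neurons, Gria1 by 22.2-fold and Grin2d by 20.9-fold, and Gria2 was lower by 3.52-fold. The interneurons fell into cells with markers of the medial ganglionic eminence (MGE), such as Lhx6 and Sst, and of the caudal ganglionic eminence (CGE), such as Adarb2 and Htr3a. Gria1, Gria4 and Grin3a were found mostly in the MGE type and Grin2d in both.

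All 9 genes were tested between 299 interneurons and 1563 excitatory neurons, and 4 were higher and 1 lower, where 12% of all genes differed, 5.91% higher and 6.06% lower. The median over the genes was 0.81, against 0.04 over all genes. The log2 ratio was 4.47 (4.16 to 4.79) for Gria1, 4.39 (3.30 to 5.60) for Grin2d, 3.04 (2.53 to 3.56) for Grin3a, 2.46 (1.96 to 2.95) for Gria4 and -1.81 (-1.99 to -1.65) for Gria2. Grin2b had a ratio of -0.13 (-0.28 to 0.01) and Gria3 of -0.16 (-0.90 to 0.51), both with intervals that take in 0. Grin1 had 0.81 (0.36 to 1.23) and Grin2a 0.75 (-0.02 to 1.46). With finer clusters Gria4 stood at 3.73, and Grin2a passed at 1.08.

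Gria1 stood at 346 CPM (309 to 387) in 168 MGE-type interneurons and was found in 81.5% of them (62.6% thinned). In 131 CGE-type cells it stood at 17.4 CPM (8.33 to 31.9), and in no excitatory class above 25.2 CPM (16.6 to 36.6), the value of layer 6. The MGE type was thus the only E18 class whose Gria1 interval did not overlap that of another class. Gria4 stood at 59.2 CPM (44.5 to 77.2) in MGE-type cells and 12.2 CPM (4.89 to 25.0) in CGE-type cells. Gria2 stood in both at overlapping levels, 214 CPM (185 to 246) and 172 CPM (139.7 to 209). The CGE-type cluster had a marker score of 1.0 for its own list and 0.92 for that of inhibitory neuroblasts. At Leiden resolution 2 it divided into 87 cells that kept the CGE name and 44 named inhibitory neuroblast.

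Gria2 made up 33.4% (29.6 to 37.4) of the AMPA UMIs of MGE-type cells, and Gria1 54.1% (50 to 58.2). In CGE-type cells Gria2 made up 84.6% (76.8 to 90.6). Its share was 98.2% (97.7 to 98.6) in upper-layer, 95.3% (94.1 to 96.4) in newborn, 88.5% (86.6 to 90.3) in layer 5 and 83.4% (79.8 to 86.5) in layer 6 neurons. In the named P2 neural classes of 30 or more cells the share lay between 37.8% (34.2 to 41.6) in the MGE type and 96.7% (95.7 to 97.6) in excitatory neurons of no named layer, with oligodendrocyte precursors the next lowest at 83.2% (81.2 to 85.1).

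**Figure D3:**
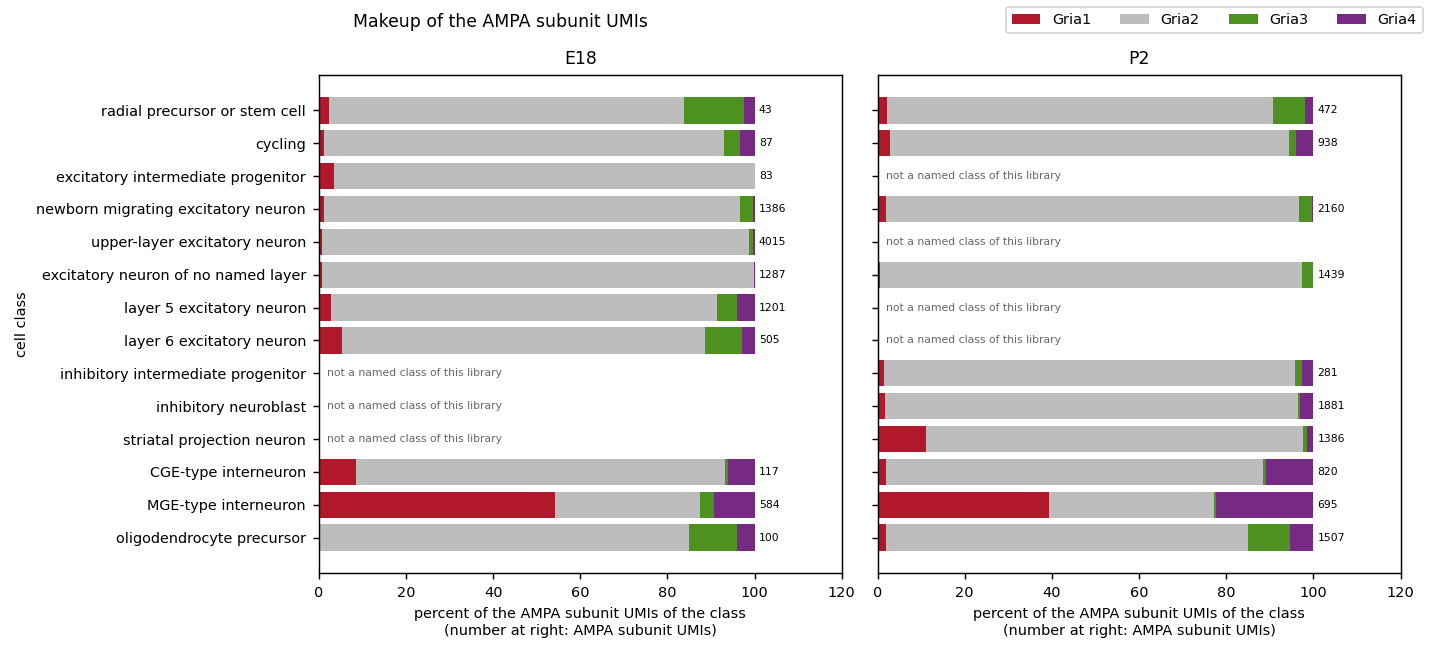
Makeup of the AMPA subunit UMIs in each named class, as percent of the class's AMPA UMIs, with the number of UMIs at the right of each bar. Gria2 (grey) fills most of every bar except that of MGE-type interneurons, where it takes 33.4% at E18 and 37.8% at P2 and Gria1 (red) takes 54.1% and 39.4%.

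The NMDA genes divided the interneuron types in another way. Grin2d stood at 29.5 CPM (17.2 to 47.3) in CGE-type cells and 11 CPM (5.26 to 20.2) in MGE-type cells, with overlapping intervals, and at 1.86 CPM or less in every excitatory class. Grin1 was 36.5 (22.6 to 55.8) and 37.3 (25.8 to 52.1) CPM in the 2 types and Grin2b 241 (203 to 285) and 312 (277 to 351) CPM. In CGE-type cells 40.4% had NMDA without AMPA UMIs and 20.2% had both kinds, while 60.6% of MGE-type cells had both.

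Grin3a stood at 72.3 CPM (55.9 to 92.0) in MGE-type cells, but in only 14.9% of them. At Leiden resolution 2, a division added after seeing the data, the class split into 116 cells with 3 Grin3a UMIs and 52 cells with 63. In the smaller cluster Grin3a stood at 166 CPM (128 to 212) and was found in 46.2% of cells (31.2% thinned). Gria1 was at 372 (322 to 427) and 311 (257 to 372) CPM in the larger and smaller cluster. The smaller cluster had Sst at 722 CPM in 51.9% of cells and the larger at 687 CPM in 20.7% of cells, and Nr2f2 stood at 132 and 1.88 CPM.

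Other receptor genes separated interneurons from excitatory neurons as well. Of 7 kainate, delta and further NMDA genes 5 were higher, with a median log2 ratio of 1.15, led by the kainate subunit Grik1 (log2 ratio 7.18, 5.77 to 9.10). Of 18 auxiliary genes 5 were higher and 4 lower, with a median of 0.25: Cacng3, a relative of stargazin, was at 5.89 (4.98 to 6.94) and Neto1 at 4.99 (4.41 to 5.61), whereas Cnih3 was at -2.64 (-3.78 to -1.70). Of 21 scaffold genes 4 were higher and 2 lower, with a median of -0.00 and with Dlgap2 at 5.18 (4.26 to 6.21), Grip1, which binds Gria2, at 2.19 (1.84 to 2.54), and Camk2b at -2.07 (-2.49 to -1.68). Adarb2, an RNA editing enzyme without known activity and a marker of the CGE type, was at 8.10 (7.34 to 8.98).

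The P2 library held the inhibitory lineage of the V-SVZ, from stem cells to neuroblasts, the young neurons that migrate to the olfactory bulb. Gria2 and Grin2b were at intermediate levels in stem cells, lowest in intermediate progenitors and higher in neuroblasts. Gria3 went the other way and was lower in neuroblasts than in stem cells by 10.2-fold. Striatal projection neurons, the main neurons of the adjoining striatum, had Gria1 at 9.74-fold its level in the named neuroblasts, a fold that depended on which clusters carried that name.

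Gria2 stood at 203 CPM (184 to 223) in 112 stem cells, 168 CPM (157 to 179.6) in 177 cycling cells, 88.3 CPM (77.9 to 99.5) in 149 inhibitory intermediate progenitors and 422 CPM (403 to 442) in 410 neuroblasts. These intervals were all separate. Grin2b stood at 27.7 CPM (20.9 to 35.8), 25.2 CPM (21.1 to 30.0), 15.3 CPM (11.2 to 20.4) and 64.7 CPM (57.2 to 72.8) in the same classes, and those of stem and cycling cells overlapped. Thinned, 57.3% of neuroblasts had a Gria2 UMI and 16.6% a Grin2b UMI, against 35.2% and 8.57% of stem cells. Median depth was 9248 UMIs in neuroblasts and 18492 in stem cells.

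Between neuroblasts and stem cells 3 of 7 genes tested were higher and 1 lower, where 38.7% of all genes differed, 14.3% higher and 24.5% lower. The log2 ratio was 1.06 (0.90 to 1.22) for Gria2, 1.23 (0.81 to 1.66) for Grin2b, 1.65 (0.63 to 2.85) for Gria4 and -3.36 (-4.77 to -2.16) for Gria3. Gria2 no longer passed with doublets kept (0.75) or at Leiden resolution 0.5 (0.61), and Grin2b not with doublets kept (0.88) or at resolution 2 (0.71). Gria4 was lost at resolution 2 (1.15). The ratio of Gria3 was -4.69 with a 5% mitochondrial limit and -4.01 with cells weighted equally, where those of Gria4 and Grin2b were 2.53 and 1.87. Gria1, Grin1 and Grin3a had ratios of 0.69 (-0.37 to 1.87), 1.63 (-0.14 to 4.03) and -0.53 (-1.33 to 0.29), and the sign of Gria1 turned with doublets kept (-0.67), while it passed at resolution 0.5 (2.88) and 2 (2.03). Grin1 passed at resolution 0.5 (2.46) and with TMM scaling (1.79), and the sign of Grin3a turned under the 5% limit (0.85).

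All 6 co-agonist genes measured were lower in neuroblasts, with a median log2 ratio of -4.82 against -0.03 over all genes, and with Slc7a10 at -8.15 (-11.20 to -6.28) and Phgdh at -6.01 (-6.36 to -5.68). Of 6 other ionotropic receptor genes 1 was higher, Grik3 at 5.02 (3.46 to 7.31), and 3 were lower, with the kainate gene Grik1 at -4.28 (-7.43 to -2.23). Of 14 auxiliary genes (median -0.30) 2 were higher, with Cacng2 at 4.54 (2.96 to 6.83), and 3 lower, with Gsg1l, an AMPA receptor partner of the claudin family, at -7.24 (-12.57 to -4.72). Rest stood at 93.7 CPM in stem cells and 9.47 CPM in neuroblasts. Rest was also 52.2 CPM in microglia and 44.8 CPM in oligodendrocyte precursors, while Gria2 was at 18.1 and 604 CPM there.

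The P2 stem cluster joined stem cells and maturing astrocytes, which separated at Leiden resolution 2, a division added after seeing the data. Gria3 stood at 38.8 CPM (26.1 to 55.3) in the 42 stem cells and 4.77 CPM (1.55 to 11.1) in the 48 astrocytes, and Grin2b at 43.9 CPM (30.4 to 61.4) and 11.5 CPM (5.92 to 20.0). Gria2 stood at 177 CPM (149 to 209) and 342 CPM (307 to 379). Gria3 and Grin2b were thus on the stem cell side and Gria2 on the astrocyte side, with separate intervals for each. Gria2 was 77.8% (71.0 to 83.7) of the AMPA UMIs in the stem cells and 97.8% (95.7 to 99.1) in the astrocytes. The 42 and 48 cells do not make up all 112 cells of the cluster, which is the stem cell class of the P2 comparisons. On the marker score that names clusters, the mural list reached 1.0 in it, as did the stem cell list. The part of such cells in the ratios was not tested.

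Gria1 stood at 76.1 CPM (64.6 to 89.1) in 156 striatal neurons and 7.82 CPM (5.38 to 11) in neuroblasts. Of 6 genes tested between them 3 were higher and 1 lower, where 25.0% of all genes differed, 11.6% higher and 13.4% lower. The log2 ratio was 3.28 (2.73 to 3.87) for Gria1, 2.21 (1.39 to 3.07) for Grin1 and 1.73 (1.51 to 1.96) for Grin2b. The ratio of Gria1 was 1.65 at Leiden resolution 0.5 and 1.61 at resolution 2. Unnamed clusters 1 and 10, whose nearest marker list was that of neuroblasts, are not in the neuroblast class and held Gria1 at 112 CPM (99.5 to 126) and 113 CPM (96.3 to 131), above striatal neurons, while unnamed cluster 5, also nearest to that list, held it at 1.43 CPM (0.39 to 3.66). Grin3a was lower at -1.22 (-2.64 to -0.02) and did not pass at resolution 2 (-1.10) or with TMM scaling (-1.18), while it was -2.26 under the 5% limit and -1.95 at resolution 0.5. Grin1 was 2.91 under the 5% limit. Gria4 was at -0.47 (-1.29 to 0.28). Gria2 was at 0.49 (0.38 to 0.60), under 2-fold, with 593 CPM (560.0 to 628) in striatal neurons.

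Of 21 scaffold genes 10 were higher in striatal neurons and 4 lower, with a median of 0.58 against -0.10 over all genes, and with Camk2a at 6.84 (4.30 to 12.17) and Dlg2, a relative of the scaffold PSD-95, at 4.27 (3.72 to 4.86). Of 14 auxiliary genes 6 were higher and 1 lower, with a median of 0.75 and Neto1 at 5.12 (4.24 to 6.15). Of 4 metabotropic receptors 3 were higher, among them Grm5 at 7.95 (6.72 to 9.57). After thinning 37.5% of striatal neurons and 11.8% of neuroblasts had AMPA and NMDA UMIs together.

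The remaining named P2 neurons were excitatory or interneurons. The 57 excitatory neurons of no named layer had the highest Gria2 of any class, 2122 CPM (2012 to 2236), present in every thinned cell, and the 160 newborn excitatory neurons had 988 CPM (946 to 1032). Grin2b stood at 235 CPM (199 to 275) and 119 CPM (104 to 135) in them, and Gria3 at 57.9 CPM (41.0 to 79.5) and 29.9 CPM (22.9 to 38.4). For each of these genes the interval of the class of no named layer lay above that of newborn neurons. The cortex had been removed from this dissection, and 87.7% and 80.6% of the cells in these classes carried EYFP UMIs.

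Oligodendrocyte precursors, the dividing glia that receive synapses from neurons and give myelinating cells, were compared with the stem cells of their own library. At P2 they were higher than stem cells in Gria1, Gria2, Gria3, Gria4, Grin1 and Grin3a and lower in Grin2b. Grin3a and Gria3 each gave 145 UMIs in 111 cells. The class held markers of committed oligodendrocytes too, with 9 of 9 detected at a summed 2623 CPM, and Mbp, a myelin protein gene, at 603 CPM in 34.2% of cells.

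Gria2 stood at 604 CPM (571 to 639), Gria3 at 69.9 CPM (59.0 to 82.2), Gria4 at 38.5 CPM (30.6 to 48) and Gria1 at 13.5 CPM (8.96 to 19.5) in the P2 precursors. Grin3a stood at 69.9 CPM (59.0 to 82.2) and was found in 55.9% of cells (20.9% thinned). No other P2 class or cluster had a Grin3a interval that reached it, the next named class of 30 or more cells being stem cells at 11.6 CPM (7.46 to 17.3). Grin1 stood at 18.3 CPM (13 to 25.1) and Grin2b at 10.1 CPM (6.26 to 15.5), whose interval overlapped that of microglia. Of the Grin2 UMIs, 36 in all, Grin2b made up 58.3% (40.8 to 74.5), while its share was 98.9% (97.4 to 99.6) in striatal neurons and 92.3% (87.5 to 95.8) in CGE-type interneurons. P2 MGE-type interneurons held 107 UMIs of Grin2b, 13 of Grin2d and 3 of Grin2a.

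Each of the 7 genes tested differed from stem cells, 6 higher and 1 lower, where 26.1% of all genes differed, 12.2% higher and 13.9% lower. The log2 ratio was 3.65 (2.0 to 5.99) for Grin1 (38 against 3 UMIs), 3.14 (2.15 to 4.32) for Gria4, 2.58 (1.96 to 3.27) for Grin3a and 2.04 (1.5 to 2.62) for Gria3. It was 1.57 (1.41 to 1.74) for Gria2, 1.48 (0.39 to 2.68) for Gria1 and -1.45 (-2.25 to -0.71) for Grin2b. The median was 2.04, against 0.06 over all genes. Gria1 did not pass with a 5% mitochondrial limit (0.51) or with doublets kept (0.59), nor Grin2b with doublets kept (-0.66). Under the 5% limit Grin3a stood at 4.07 and Gria4 at 3.83, Grin1 stood at 2.58 with doublets kept and 3.01 at Leiden resolution 2, and Gria3 at 1.23 at that resolution. Grin2d had 11 UMIs against 0, under the minimum.

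The 48 E18 precursors gave fewer UMIs. Gria2 stood at 257 CPM (205 to 318), Gria3 at 33.3 CPM (16.6 to 59.6), Grin3a at 21.2 CPM (8.52 to 43.7) and Grin2b at 12.1 CPM (3.30 to 31.0), and Gria1 had 0 UMIs. Against E18 radial precursors 2 genes reached the minimum and 1 was higher, Gria2 at 2.05 (1.46 to 2.66), where 19.7% of all genes differed, 5.63% higher and 14.0% lower. Grin2b was at -1.23 (-3.27 to 0.40). Thinned, 4.44% of E18 and 22.7% of P2 precursors had AMPA and NMDA UMIs together, and 46.7% and 59.1% had AMPA alone.

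**Figure D4:**
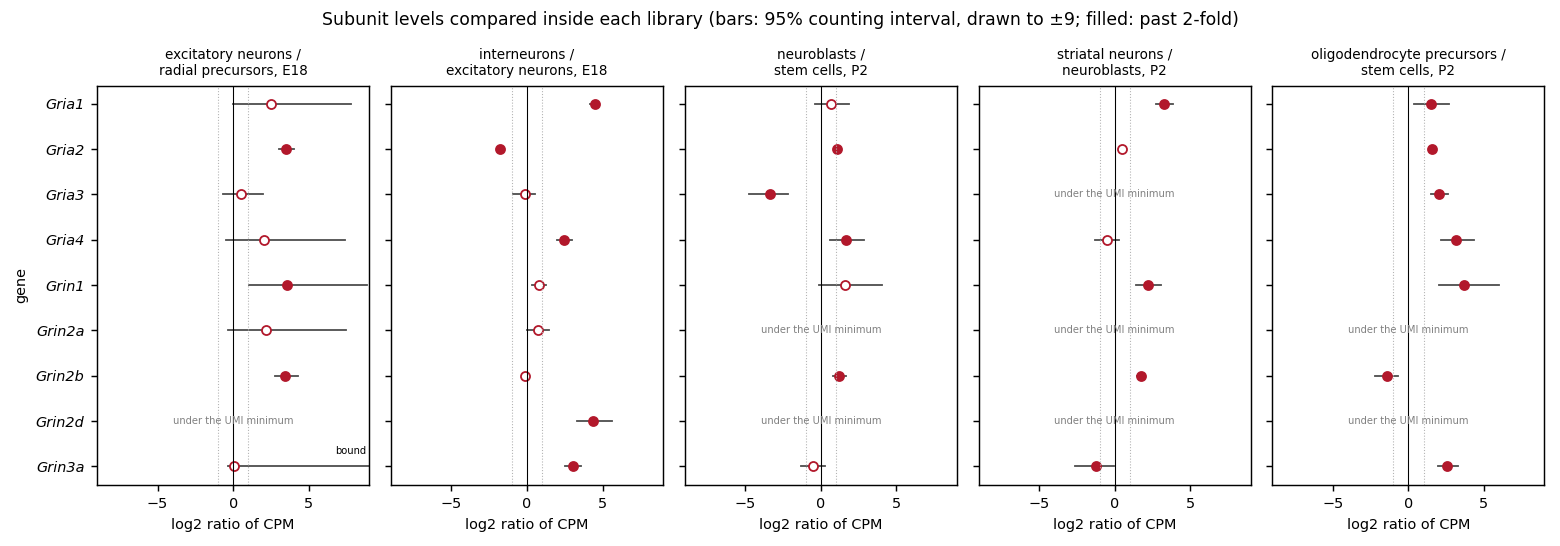
Log2 ratio of CPM for each gene in 5 comparisons inside a library, with the 95% counting interval. Filled points passed the 2-fold rule, dotted lines mark 2-fold, and bound marks a ratio against 0 UMIs set at 3 UMIs. Gria1 stands at 4.47 in interneurons over excitatory neurons, and Grin2b is the only gene left of 0 in P2 oligodendrocyte precursors over stem cells, at -1.45.

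Partner genes in the P2 precursors included 4 of 7 other ionotropic receptor genes that were higher than in stem cells, led by the kainate genes Grik3 (log2 ratio 4.55, 2.95 to 6.87) and Grik4 (log2 ratio 4.90, 2.31 to 10.25). Of 7 adhesion genes 5 were higher, with a median log2 ratio of 1.5 and with Lrrtm3 at 3.88 (3.04 to 4.86), and of 19 scaffold genes 5 were higher, with a median of 0.49 and Dlgap3 at 4.11 (2.48 to 6.43). Of 15 auxiliary genes 5 were higher and 3 lower, with a median of -0.07: Shisa7 was at 3.49 (2.30 to 4.99), Cacng4 at 2.25 (1.96 to 2.56) and Gsg1l at -4.63 (-6.94 to -3.03). Of 6 co-agonist genes 4 were lower, and the metabotropic genes Grm3 and Grm5 were lower at -5.68 (-8.75 to -3.79) and -1.58 (-2.02 to -1.16).

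The libraries were compared inside the classes that both held, to see how the subunits stood before and after birth. In interneurons genes passed in both directions: Grin2b, Grin1, Grin2a, Grin3a and Gria3 were lower at P2 in the MGE type, and Grin2b, Grin1 and Grin2d in the CGE type, while Gria4 was higher in both. In radial precursors or stem cells, cycling cells, newborn excitatory neurons and oligodendrocyte precursors the genes that passed were higher at P2. Tissue, mouse line and depth differ with age in all these comparisons and cannot be told apart from it.

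MGE-type cells, 84 at P2 and 168 at E18, had 9 genes tested, with 1 higher and 5 lower, where 28.7% of all genes differed, 19.1% higher and 9.60% lower. Grin2b stood at 88.3 CPM (72.4 to 107) at P2 and 312 CPM (277 to 351) at E18, a log2 ratio of -1.82 (-2.16 to -1.5). Grin3a had 1 against 66 UMIs and a ratio of -6.45 (-11.78 to -3.93), and 63 of the E18 UMIs lay in the 52-cell cluster with high Grin3a. Grin2a was at -2.99 (-5.40 to -1.22), Grin1 at -1.80 (-2.84 to -0.84) and Gria3 at -3.07 (-5.47 to -1.31). Gria4 stood at 128 CPM (109 to 149.7) at P2, a ratio of 1.11 (0.66 to 1.59). Gria1 was at -0.61 (-0.85 to -0.38) and Gria2 at 0.02 (-0.25 to 0.30). Grin2d was at -0.03 (-1.33 to 1.32). The median of the 9 genes was -1.80, against 0.15 over all genes. Grin3a lay between -7.31 with cells weighted equally and -5.47 at Leiden resolution 2, Gria3 between -3.98 under the 5% limit and -2.14 with doublets kept, Grin1 was -2.52 under the 5% limit and Grin2a -1.78 with cells weighted equally. A minimum of 50 UMIs left 3 of the calls.

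The MGE cells of the libraries also differed in their markers. Sst, the peptide of maturing MGE interneurons, stood at 701 CPM in 30.4% of cells at E18 and 52.0 CPM in 10.7% of cells at P2. Nkx2-1, which interneurons bound for the cortex lose and those of the striatum keep, stood at 1.10 CPM in 0.60% of cells and 263 CPM in 82.1% of cells, and Lhx6 at 464 CPM in 83.9% of cells and 420.0 CPM in 100% of cells. All 11 MGE markers were detected at both ages, at a summed 4199 CPM at E18 and 4312 CPM at P2, and the markers of inhibitory neuroblasts summed to 1251 CPM (10 of 13 detected) and 4488 CPM (13 of 13). Their part in the differences of the receptor genes was not tested. Of 14 auxiliary genes 0 were higher and 6 lower at P2, with a median of -0.74 and Neto1 at -4.18 (-5.43 to -3.15), and the metabotropic genes Grm5 and Grm3 were lower at -4.36 (-5.34 to -3.52) and -4.55 (-6.88 to -2.93). Of 5 extracellular binders 3 were higher, with Olfm2 at 1.30 (0.94 to 1.67).

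CGE-type cells, 175 at P2 and 131 at E18, had 6 genes tested, with 1 higher and 3 lower, where 22.7% of all genes differed, 13.7% higher and 8.96% lower, with a median of 0.07. Grin2b stood at 76.1 CPM (65.0 to 88.4) at P2 and 241 CPM (203 to 285) at E18, a log2 ratio of -1.67 (-2.0 to -1.33), and Grin2d at 2.70 CPM (0.99 to 5.88) and 29.5 CPM (17.2 to 47.3), a ratio of -3.45 (-5.08 to -2.04). Grin1 was at -2.02 (-2.98 to -1.06). Gria1 was at -1.27 (-2.50 to 0.03) and passed under the 5% limit (-3.71) and with doublets kept (-1.31). Gria4 stood at 40.1 CPM (32.2 to 49.3) and 12.2 CPM (4.89 to 25.0), a ratio of 1.72 (0.62 to 3.08). Gria2 was at 0.89 (0.59 to 1.21), under 2-fold. Cxcl14, a marker of the type, stood at 382 CPM in 32.1% of cells at E18 and 7.20 CPM in 8.0% of cells at P2, and the neuroblast markers were at a summed 3241 and 5108 CPM. Their part was not tested. Of 16 scaffold genes 0 were higher and 3 lower, and of 12 auxiliary genes 0 were higher and 3 lower, with Neto1 at -3.80 (-5.58 to -2.31).

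**Figure D5:**
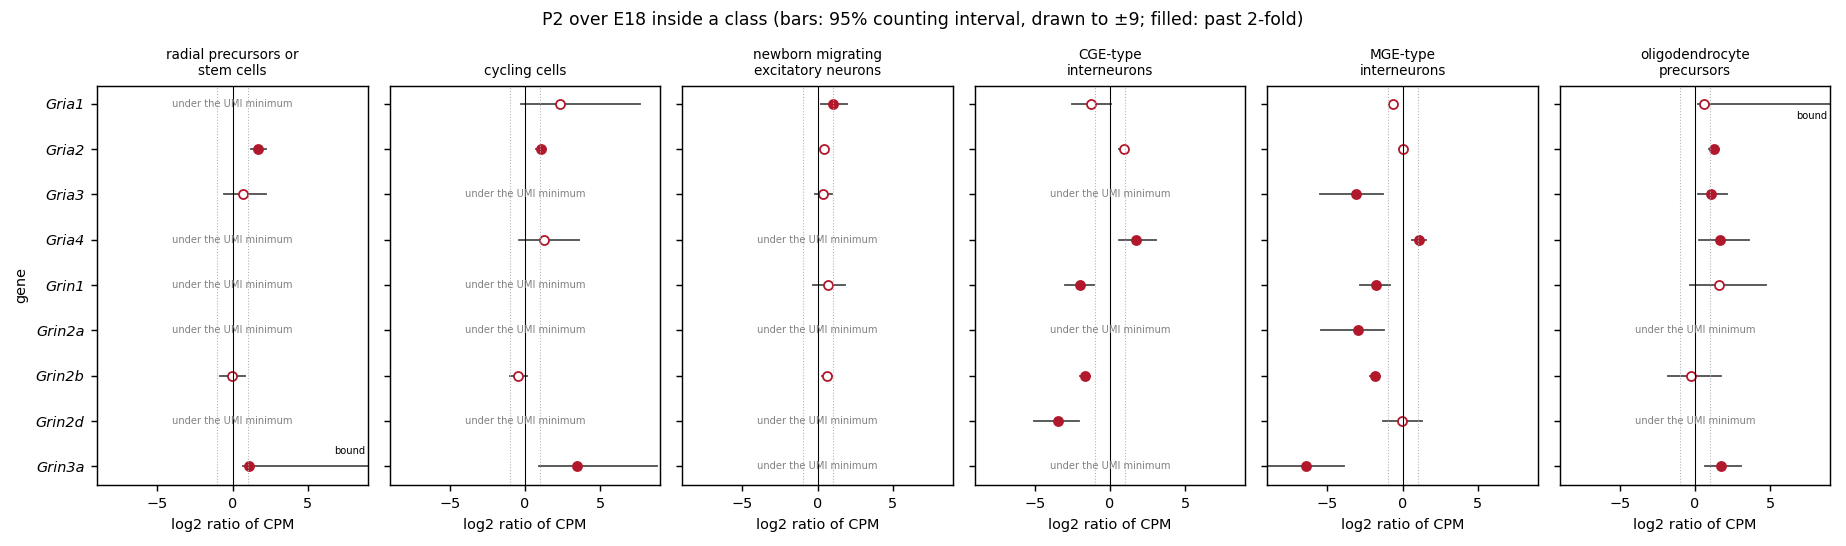
Log2 ratio of P2 over E18 for each gene inside 6 classes, with the 95% counting interval. Filled points passed the 2-fold rule, dotted lines mark 2-fold, and bound marks a ratio against 0 UMIs set at 3 UMIs. Gria4 lies right of 0 and Grin2b left of 0 in both interneuron classes, and Grin3a lies at -6.45 in MGE-type interneurons and at 1.72 in oligodendrocyte precursors.

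Among stem cells 2 of 4 genes tested were higher at P2, where 21.4% of all genes differed, 17% higher and 4.35% lower. Gria2 was at 1.70 (1.20 to 2.24). Grin3a had 24 UMIs at P2 and 0 at E18, 2.18-fold more with the 0 set at 3 UMIs. The interval of its log2 ratio began at 0.71, and the gene no longer passed with TMM scaling or Leiden resolution 2. Gria3 was at 0.67 (-0.60 to 2.21) and Grin2b at -0.04 (-0.86 to 0.86). At resolution 2, where astrocytes were apart, Gria3 passed at 1.85 and Grin2b stood at 0.61. The median of all genes tested was 0.26, and TMM scaling lowered the ratios by 0.15. Markers of maturing astrocytes summed to 934 CPM at E18, with 8 of 11 detected and Agt, Gjb6 and S100b at 0, and to 3559 CPM at P2, with 11 of 11 detected. Their part was not tested.

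Among cycling cells 2 of 5 genes were higher, where 26.8% of all genes differed, 16.1% higher and 10.7% lower: Gria2 at 1.04 (0.71 to 1.39) and Grin3a at 3.47 (0.94 to 8.8), on 58 against 1 UMI. Gria2 did not pass at Leiden resolution 0.5 (0.16) or 2 (0.77), with cells weighted equally (0.83) or with an unnamed cycling cluster added (0.88), and Grin3a not at resolution 0.5 (0.73), while it was 2.69 with doublets kept. Gria1 was at 2.31 (-0.29 to 7.67), and passed with doublets kept (2.90), Gria4 at 1.24 (-0.42 to 3.58) and Grin2b at -0.46 (-1.02 to 0.13). Among newborn excitatory neurons 1 of 5 genes was higher, where 19.3% of all genes differed, 14.9% higher and 4.38% lower. This was Gria1 at 1.05 (0.22 to 1.93), which lay between 0.79 and 0.97 and did not pass with doublets kept, at either other resolution, with TMM scaling or with cells weighted equally. Gria2 and Grin2b were at 0.46 (0.36 to 0.56) and 0.63 (0.32 to 0.94). Gria3 was at 0.39 (-0.20 to 0.99), and passed at resolution 0.5 (1.40), and Grin1 was at 0.71 (-0.32 to 1.81) and at -0.04 under the 5% limit.

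Among oligodendrocyte precursors, compared after seeing the data because the E18 class held 48 cells, 4 of 7 genes were higher, where 20.7% of all genes differed, 17% higher and 3.67% lower. Gria2 was at 1.23 (0.91 to 1.57), Gria3 at 1.07 (0.19 to 2.10), Gria4 at 1.67 (0.26 to 3.58) and Grin3a at 1.72 (0.64 to 3.06). The median of all genes was 0.39, and TMM scaling lowered the ratios by 0.23. Markers of committed oligodendrocytes summed to 430 CPM at E18, with 8 of 9 detected and Enpp6 at 0, and to 2623 CPM at P2, and their part was not tested. Gria3 did not pass with TMM scaling (0.84). Gria1 had 28 UMIs against 0, which is 1.49-fold more with the 0 set at 3 UMIs. The interval of its log2 ratio began at 0.18, and the gene did not pass, except with doublets kept (1.13). Grin1 was at 1.60 (-0.36 to 4.69) and Grin2b at -0.26 (-1.83 to 1.74).

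EYFP UMIs were used to divide the P2 classes by descent from the Emx1-expressing cortex. Cells with at least 1 EYFP UMI were set against those with 0 in the 4 classes with 50 or more cells of each kind. In each class 1 gene passed, a different one in each case. Of all genes tested 3.38% passed in cycling cells (2.47% higher, 0.908% lower), 3.10% in intermediate progenitors (1.46% and 1.64%), 2.59% in neuroblasts (1.24% and 1.35%) and 5.60% in stem cells (2.06% and 3.54%). Descent is read from a transcript, so a cell with EYFP may be missed at low depth. EYFP UMIs were found in 13.1% of MGE-type interneurons, 10.9% of striatal neurons and 0% of microglia. False detection of EYFP was not tested.

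Grin2b was higher in EYFP-positive cycling cells, 37.6 against 12.4 CPM and a log2 ratio of 1.60 (1.01 to 2.23), 1 of 5 genes tested, with Gria2 at 0.99 (0.78 to 1.20), which passed with 2 or more EYFP UMIs (1.07). Gria1, Gria4 and Grin3a were at 0.62 (-0.61 to 1.92), 0.33 (-0.67 to 1.37) and 0.34 (-0.45 to 1.15) there. Gria2 was higher in EYFP-positive intermediate progenitors, 122 against 50.3 CPM and a log2 ratio of 1.27 (0.88 to 1.69), 1 of 2 genes tested, and did not pass at Leiden resolution 2 (0.47) or with cells weighted equally (0.21). Grin2b was at 0.08 (-0.82 to 0.99) in these progenitors. Grin3a was lower in EYFP-positive neuroblasts, 2.52 against 12.9 CPM and a log2 ratio of -2.36 (-4.09 to -0.97), 1 of 5 tested, and did not pass at resolution 0.5 (-0.39) or 2 (-0.78). In neuroblasts Gria1 was at 0.98 (-0.11 to 2.14) and turned to a passing -1.04 at resolution 0.5, and Gria4 and Grin2b were at 0.48 (-0.32 to 1.28) and 0.51 (0.15 to 0.86). Gria3 was higher in EYFP-positive cells of the stem cell class, 27.3 against 4.32 CPM and a log2 ratio of 2.66 (1.16 to 4.63), 1 of 4 tested, on 31 against 4 UMIs, and was 3.30 with cells weighted equally. This class joined stem cells with maturing astrocytes, which had less Gria3 than stem cells where the 2 were apart. Their shares among EYFP-positive and EYFP-negative cells were not tested, and the comparison was not run at resolution 2. Grin2b was at 0.82 (-0.02 to 1.72) in stem cells, and passed under the 5% limit (1.11) and with doublets kept (1.03), and Grin3a was at 0.71 (-0.60 to 2.14). Gria2 lay above 0 in all 4 classes, at 0.88 (0.75 to 1.02) in neuroblasts and 0.40 (0.11 to 0.69) in stem cells, and passed in 1 of them.

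The genes most like each subunit were found by Pearson's r of log2 of CPM plus 10 over the 11 named classes of 30 or more cells in a library, among genes that reached 50 CPM in a class. The classes share their library and differ in depth, so these values are a description. Gria1 was most like Dgkg at E18 (r = 0.97) and Ajap1 at P2 (0.94), and Gria2 most like Commd3 (0.97) and Map2k4 (0.97). Grin2b was most like Kifap3 at E18 (0.99) and Napb at P2 (0.98). Grin3a at P2 was most like S100b (0.93), Ugt8a (0.93), Cspg4 (0.93), C1ql1 (0.93) and Nkx2-2 (0.92), in that order, each highest in oligodendrocyte precursors, and at E18 most like Dpp10 (0.96). Gria4 was most like Rph3a at E18 (0.95) and Mbip at P2 (0.94).

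Among pairs of the 9 genes the highest r at E18 was that of Gria4 and Grin3a (0.93), followed by Grin1 and Grin2b (0.90), and the lowest that of Gria2 and Grin2d (-0.19). At P2 the highest was Grin1 and Grin2a (0.84), and the lowest Grin2b and Grin3a (-0.49). Grin2a held at most 8 UMIs and at most 4.57 CPM in any of these P2 classes, so its r rests on values near the background. Gria4 and Grin3a thus peaked in the same E18 class, the MGE type, and in different P2 classes, the MGE type and the oligodendrocyte precursors.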

How the data were processed

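Single-cell RNA was counted in 2 libraries, E18 and P2. The deposited matrices hold raw UMI counts per gene and barcode, made by the authors with cellranger 4.0.0 per the file headers, on mm10 per the submitters' processing notes, and the deposited gene and barcode lists name their rows and columns. No source at hand states the chemistry, the number of animals or the use of strand. Groups were taken from the labels, and no sample was left out.

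Barcodes with 500 or more genes and at most 10% mitochondrial UMIs were kept (2631 of 2922 at E18, 2442 of 2778 at P2). Scrublet, run through scanpy 1.11.5 with an expected rate of 0.05, called 42 and 5 doublets, too few at P2 to have worked, so cells at or above the 95th percentile of the score were dropped, which with tied scores came to 156 (5.93%) and 144 (5.90%). Clustering used 2000 variable genes without the receptor genes, the partner lists, EYFP, mitochondrial, haemoglobin and sex genes, with 30 components, 15 neighbours and Leiden resolution 1. Names required a marker score of 0.5 or more and 4 detected markers from 26 marker lists, so differences from the study's own cell types may come from these rebuilt names. P2 cells had a higher median depth (12525 against 6566 UMIs in the cells used).

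UMIs were summed per class, with exact Poisson intervals for CPM and exact conditional intervals for ratios, from scipy 1.17.1. In ratios a level of 0 UMIs was set at 3 UMIs. The ratio code was checked on simulated data. Each of the 9 genes that was tested is named in each comparison, and up to 3 genes of a partner list in each direction, by the interval bound nearest 0, with Slc17a6, Slc17a7, Rest and single markers named as background; fewer were printed where space asked for it. The 9 genes and the 9 partner lists (85 genes) were chosen with earlier results of these data known. A gene of a partner list and a pore sequence are not reported here.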

Additional observations from a re-analysis of the deposited data

Results flagged for a closer look

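In 2 genes the P2 over E18 log2 ratio passed the 2-fold rule in opposite directions in different classes, and the difference between the classes was not tested. Gria3 was lower at P2 in MGE-type interneurons, at -3.07, and higher in oligodendrocyte precursors, at 1.07. Grin3a was lower at P2 in MGE-type interneurons, at -6.45, where 63 of the 66 E18 UMIs lay in a cluster of 52 cells, and higher in cycling cells at 3.47 and in oligodendrocyte precursors at 1.72. In stem cells Grin3a had 24 UMIs against 0, a log2 ratio of 1.13 with the 0 set at 3 UMIs.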

How the results depend on the processing

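In all 55 ratios of the 9 genes passed the 2-fold rule over the comparisons. By value and interval alone, 40 of them passed under every setting run and 15 did not under 1 or more. The 40 and the 15 do not count calls lost only because a gene fell under the higher UMI minimum. Some of the 40 were lost in that way, and the next paragraph gives comparisons in which this happened. Of the passing ratios 0 changed sign, and 23 values of ratios that did not pass did. The values of lost calls stand beside each result, and the cause was not tested.

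The number of genes that passed moved by over 1.5 times as follows. With doublets kept it was 2 in neuroblasts against stem cells, 0 in newborn neurons across ages, 2 in EYFP-positive cycling cells and 2 in EYFP-positive stem cells. At Leiden resolution 0.5 it was 1 in cycling cells across ages, 2 in EYFP-positive cycling cells and 2 in EYFP-positive neuroblasts. At resolution 2 it was 3 in layers 5 and 6 against newborn neurons, 1 in cycling cells and 0 in newborn neurons across ages, and 0 in EYFP-positive intermediate progenitors and neuroblasts. With a 5% mitochondrial limit it was 1 in stem cells across ages and 2 in EYFP-positive stem cells. With TMM scaling it was 1 in stem cells and 0 in newborn neurons across ages, and with cells weighted equally 1 in cycling cells and 0 in newborn neurons across ages and 0 in EYFP-positive intermediate progenitors. With 50 or more UMIs it was 1 in stem cells, 3 in MGE-type and 2 in CGE-type interneurons across ages, and 0 in EYFP-positive neuroblasts and stem cells, where fewer genes were tested. With no minimum it was 3 in E18 oligodendrocyte precursors and 2 in newborn neurons across ages. With 2 or more EYFP UMIs it was 2 in cycling cells, and with unnamed P2 cluster 12, added after seeing the data, 1 in cycling cells across ages.

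TMM scaling shifted the ratios of a comparison by 0.23 or less in either direction, and by over 0.1 in excitatory neurons, neuroblasts, interneurons, layers 5 and 6, and in stem cells, newborn neurons and oligodendrocyte precursors across ages. Comparisons of E18 oligodendrocyte precursors at resolution 0.5, of EYFP in stem cells at resolution 2 and of Grin3a in stem cells across ages under the 5% limit were not run, since a class or a ratio was missing there. No paired analysis was possible because each age has 1 library. Genes of under 20 UMIs in a class, such as Grin2d and Grin2a in most, are limited by depth.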

Other observations

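Some clusters stayed unnamed and entered no comparison. In P2 cluster 1, led by Foxp2 and Tshz1, 260 cells gave 112 CPM (99.5 to 126) of Gria1, 441 CPM (415 to 468) of Gria2 and 20.0 CPM (14.8 to 26.3) of Grin3a. In P2 cluster 10, led by Six3, 118 cells gave 113 CPM (96.3 to 131) of Gria1 and 313 CPM (286 to 343) of Gria2. Gria2 was 76.3% (74.0 to 78.5) of the AMPA UMIs in the first and 72.4% (68.8 to 75.8) in the second. P2 cluster 16, led by Ebf1 and Isl1, held 44.3 CPM (22.9 to 77.4) of Gria4 in 28 cells. E18 cluster 2, led by Ntf3 and Cck, held 476 CPM (449 to 504) of Gria2 and 318 CPM (296 to 341) of Grin2b in 258 cells.

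The 9 P2 cells with ependymal markers gave 18.8 CPM (8.57 to 35.6) of Grin3a and 12.5 CPM (4.59 to 27.2) of Gria2.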
